A study of Mus musculus with 20 samples.

Results

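Alpha-defensins were described through 6 genes, Defa3, Defa23, Defa29, Defa39, Defa40 and Defa42, among 20886 mouse genes named by at least 1 probe of the array. They were taken by symbol, with every probe that maps to each of them, which gave 10 probes: 3 for Defa3, 2 each for Defa23 and Defa42, and 1 each for Defa29, Defa39 and Defa40. The genes were chosen by their signal in these same arrays, where they stood out between the sites, so their levels are given as a description and carry no test. RNA came from donor CD8+ T cells that carried the OT-I receptor and the CD45.1 allele, collected from the small intestine, liver, lung and peripheral blood of recipients with acute graft-versus-host disease, 5 arrays per site. All recipients were female m-act OVA mice on a C57Bl/6 background, aged 8 to 16 weeks, which carry an ovalbumin transgene under the CAG promoter. All were irradiated with 11 Gy, received bone marrow cells and splenocytes from OT-I donors, and gave cells on day 4 after transplant. Graft OT-I CD8+ T cells were CD45.1, while the other graft cells and the recipients were CD45.2, and CD45.1 was the marker of the magnetic selection. Since nothing in the labels links an array with an animal, the p-values below measure only the spread between arrays, which may be technical.

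Paneth cells sit at the base of the small intestinal crypts and release granules of antimicrobial proteins into the crypt lumen. Alpha-defensins, called cryptdins in mouse gut, are small cationic peptides with disulfide bonds that damage microbial membranes. In mouse Paneth cells the matrilysin Mmp7 cleaves their propeptides, and loss of Paneth cells is a known feature of intestinal graft-versus-host disease. Defa29 and Defa39 belong to the cryptdin-related sequence subgroup, whose precursors resemble those of the cryptdins while the mature peptides differ. The genes form a tandem cluster on mouse chromosome 8, where all 16 genes with a Defa symbol and a probe on this array lie (RefSeq, GRCm38.p6). Many copies are near-identical, so a probe may report more than 1 of them, and the values below belong to probes named for a gene.

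Promoter sequences show how alike copies of this cluster can be. RefSeq's table for GRCm38.p6 held a promoter for 2 of the 6 genes, Defa23 and Defa42. The 250 bases before the annotated start are given, at chr8:21054790-21055039 on the plus strand for Defa23 and chr8:21456518-21456767 on the minus strand for Defa42. Capitals mark matches to ATCAAAG, a motif of TCF/LEF factors, which act in Wnt signalling, and to TATAAA, the TATA box, searched on both strands, with no overlap between matches.
Defa23: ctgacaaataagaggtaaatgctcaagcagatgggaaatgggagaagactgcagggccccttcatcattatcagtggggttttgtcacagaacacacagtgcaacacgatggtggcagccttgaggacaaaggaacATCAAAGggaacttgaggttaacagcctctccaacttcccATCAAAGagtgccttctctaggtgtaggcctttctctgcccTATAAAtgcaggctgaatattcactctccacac
Defa42: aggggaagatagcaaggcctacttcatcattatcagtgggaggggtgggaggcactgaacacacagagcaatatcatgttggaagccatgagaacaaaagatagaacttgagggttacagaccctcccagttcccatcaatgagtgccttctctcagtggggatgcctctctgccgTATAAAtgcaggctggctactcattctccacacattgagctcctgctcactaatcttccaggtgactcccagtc
The Defa23 stretch held ATCAAAG at 114 and 74 bases before the start and TATAAA at 33 bases before it. The Defa42 stretch held TATAAA at 74 bases before its annotated start, and ATCAAAG does not occur in these letters. Over 300-base windows, which also take in the first 50 bases of the gene, ATCAAAG occurred in 13 of 16 Defa promoters and in 3.73% of all 32851 promoters of the table. TATAAA occurred in 15 of 16 Defa promoters and in 13.6% of all. These are the Defa genes with a promoter in the table, a different set from the Defa genes with a probe. The Defa23 window was identical to that of Defa31, and the Defa42 window to that of Defa43, while Defa23 and Defa42 shared 61.6% of aligned bases.

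Before the values, 2 arrays have to be set apart, because they go against their labels on Paneth cell genes. The array labelled liver 5 carried all 10 alpha-defensin probes well above background, the scanner software's flag for a spot clearly brighter than its surroundings. The array labelled small intestine 5 carried 1 of the 10. Both keep their label here, and results are given with and without them. Since Paneth cell genes set them apart, p-values without them are a description for Paneth cell genes, for their regulators and for CD8 T cell genes. Whether the 2 arrays were exchanged was not tested. The 75th percentile of the signal ran from 823 to 2848 over the 20 arrays, and the share of probes flagged as well above background from 22.6% to 38.7%. The CD8 T cell list of 15 genes was well above background for every gene on at least 1 array. Levels below are log2 signal minus the log2 of the array's 75th percentile, so 0 marks the level of a probe at that percentile.

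Alpha-defensin signal was high on small intestine 1 to 4 and on the array labelled liver 5, and near the lower end of the scale almost everywhere else. The mean level of the 6 genes was 5.81, 6.82, 2.58, 7.39 and -3.04 on small intestine 1 to 5. On the liver arrays 1 to 5 it was -2.41, -2.37, -2.09, -2.51 and 4.75, on the lung arrays -2.12, -1.99, -1.48, -1.21 and -1.80, and on the blood arrays -1.56, -2.19, -2.88, -2.82 and -1.52. Small intestine as labelled averaged 3.91 ± 4.31 (SD, n = 5), against -0.92 ± 3.18 in liver, -1.72 ± 0.38 in lung and -2.20 ± 0.65 in blood. The ranges of small intestine and liver overlap widely because of these 2 arrays. Without them small intestine averaged 5.65 ± 2.15 (SD, n = 4), against -2.34 ± 0.18 (SD, n = 4) in liver, and no small intestine array then overlapped any array of another site. The order of the remaining liver, lung and blood arrays could not be told apart beyond their spread. In bulk RNA, fewer cells of a type and less RNA per cell cannot be told apart.

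**Figure D1:**
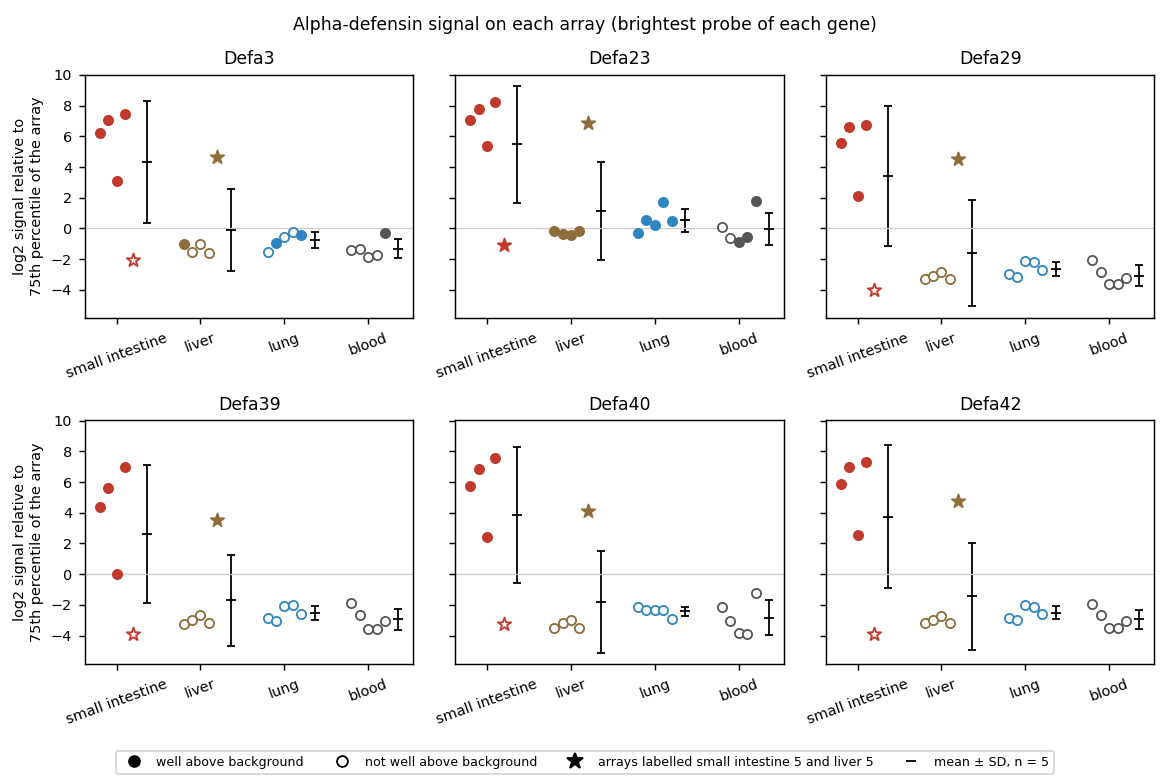
Log2 signal of the 6 alpha-defensins relative to the 75th percentile of each array, by site, 1 point per array (filled, well above background), for the probe of each gene with the highest mean; bars are the mean ± SD of 5 arrays. Small intestine 1, 2 and 4 and the star of liver 5 sit far above the arrays of liver 1 to 4, lung and blood in all 6 panels, small intestine 3 lies lower, and the star of small intestine 5 lies low.

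Defa29, a cryptdin-related peptide gene, had levels of 5.58, 6.63, 2.09, 6.75 and -4.04 on small intestine 1 to 5. It was at -3.32, -3.12, -2.83, -3.32 and 4.55 on liver 1 to 5, at -3.00, -3.16, -2.13, -2.19 and -2.74 on lung 1 to 5, and at -2.03, -2.83, -3.64, -3.65 and -3.23 on blood 1 to 5. Only small intestine 1 to 4 and the array labelled liver 5 were well above background for Defa29, and these 5 did not overlap the other 15. Where a probe was dim on every array of a site, the difference is a lower bound, taken against the lowest signal that counted as well above background on each dim array, or the probe's own if higher. On that basis Defa29 was at least 21.9-fold higher in small intestine than in blood, and at least 79.4-fold higher without small intestine 5. Against lung it was at least 57.1-fold higher and against liver 1 to 4 at least 83.7-fold higher, both without small intestine 5.

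Defa39, also a cryptdin-related gene, had levels of 4.39, 5.60, 0.02, 7.01 and -3.92 on small intestine 1 to 5 and 3.56 on the array labelled liver 5. On the other 14 arrays it did not reach that flag and ranged from -3.57 to -1.90. Small intestine 3 was therefore lower than the other 3 bright small intestine arrays by more than 4, a wider step than for Defa29. Defa39 was at least 39.6-fold higher in small intestine than in blood without small intestine 5.

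Defa3, a cryptdin gene, had 3 probes, and they agreed on which arrays were bright. The probe with the highest mean had levels of 6.19, 7.07, 3.06, 7.47 and -2.07 on small intestine 1 to 5 and 4.67 on the array labelled liver 5. The next probe had levels of 6.48, 7.27, 4.50, 7.64 and -4.22 on small intestine 1 to 5, against -2.13, -2.99, -3.81, -3.82 and 0.09 on blood 1 to 5. Blood 5 was the only blood array well above background for either of these probes. The remaining probe did not pass the flag in blood, with -2.06 on blood 5, and it gave at least a 49.2-fold higher level in small intestine than in blood without small intestine 5. The probe with the highest mean was also well above background on liver 1, lung 2 and lung 5, at -1.02, -0.97 and -0.42.

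Defa23, a further cryptdin gene, had 2 probes that disagreed on the dim arrays. The probe with the higher mean was at 7.09, 7.79, 5.35, 8.26 and -1.06 on small intestine 1 to 5. It was at -0.17, -0.39, -0.40, -0.17 and 6.84 on liver 1 to 5, at -0.30, 0.54, 0.21, 1.70 and 0.49 on lung 1 to 5, and at 0.09, -0.61, -0.87, -0.54 and 1.75 on blood 1 to 5. It was well above background on 18 of 20 arrays, so the low arrays have measured levels there. The other Defa23 probe had levels of 2.04, 3.86, -2.78, 5.12 and -4.07 on small intestine 1 to 5 and 0.30 on the array labelled liver 5. In blood, lung, liver 1 to 4 and small intestine 3 and 5 that probe stayed below the flag. The low level that the first Defa23 probe shows on nearly every array was thus not seen with the second, and what the first probe binds there was not tested.

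Defa40 had levels of 5.76, 6.84, 2.45, 7.54 and -3.24 on small intestine 1 to 5 and 4.11 on the array labelled liver 5. It stayed below the flag on the other 14 arrays. Within blood, Defa40 was highest on blood 5, at -1.23, against -2.16, -3.02, -3.86 and -3.87 on blood 1 to 4. Without small intestine 5 it was at least 104-fold higher in small intestine than in blood.

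Defa42 had 2 probes that gave closely similar profiles. The first was at 5.87, 6.98, 2.52, 7.29 and -3.90 on small intestine 1 to 5 and at 4.78 on the array labelled liver 5. The second was at 6.08, 7.07, 2.73, 7.77 and -4.07 on small intestine 1 to 5 and at 4.97 on the array labelled liver 5. Neither was well above background on the other 14 arrays, and without small intestine 5 the first was at least 105-fold higher in small intestine than in blood, the second at least 124-fold. On blood 5 they were at -3.06 and -3.20, so the higher readings of that array were not shared by every alpha-defensin probe. For the 6 genes, 3 probes carried the flag on blood 5: Defa3 at -0.32 and 0.09, and the first Defa23 probe at 1.75. Among the other genes with a Defa symbol, only Defa27 and Defa38 carried it on that array, at -1.03 and -0.05. The second Defa23 probe was at -3.23 on blood 5, and Defa40 was not well above background there.

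The 10 probes ranked the arrays nearly alike. On the scaled values small intestine 4 was highest, then small intestine 2, then small intestine 1, then the array labelled liver 5, for 10 of 10 probes. Small intestine 3 came after it for 9 of 10. The order among small intestine 1, 2 and 4 rested partly on the scaling. Unscaled, that order held for 6 of 10 probes, and the second Defa3 probe read 202596, 202390 and 199893 on these arrays, within 1.01-fold. The first Defa23 probe lay within 1.07-fold on them and Defa29 within 1.20-fold, while Defa39 spanned 2.72-fold and the second Defa23 probe 3.74-fold. No alpha-defensin spot was flagged as saturated, and the brightest probe of any array lay between 282852 and 487545. Small intestine 1, 2 and 4 stayed the top 3 arrays in unscaled signal for 10 of 10 probes, with the array labelled liver 5 next.

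The distance between arrays differed from gene to gene. Small intestine 4 exceeded small intestine 3 by between 2.91 for the first Defa23 probe and 7.90 for the second. The array labelled liver 5 exceeded small intestine 3 by between 1.42 for the Defa3 probe with the lowest mean and 3.54 for Defa39. It fell short of small intestine 1 for all 10 probes, by a difference of -0.25 at the least, for the first Defa23 probe, and -2.15 at the most, for the Defa3 probe with the lowest mean. Pairs of the 6 genes correlated at r between 0.960 and 1.00 over the 20 arrays, and between 0.954 and 1.00 over the 18 arrays without liver 5 and small intestine 5. Since 5 arrays are high and 15 are low, these r values mostly describe that split. Every slide carried the 4 sites once, and the mean of the 6 genes was higher in small intestine than in blood on 4 of 5 slides, by 7.38, 9.01, 5.46 and 10.20. On the slide with the arrays numbered 5 it was lower, by -1.52 against blood, -7.79 against liver and -1.24 against lung.

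The array also held probes for 10 other genes with a Defa symbol, and 8 of them were well above background on at least 1 array. All 8 followed the same scaled order of small intestine 4, 2 and 1 at the top. Defa38, also of the cryptdin-related subgroup, had levels of 6.33, 7.28, 3.13, 7.74 and -2.20 on small intestine 1 to 5 and 5.54 on the array labelled liver 5. Defa32 had 6.21, 7.38, 1.54, 8.07 and -1.76 there and 3.83 on liver 5, and Defa27 had 4.22, 5.31, 0.93, 6.14 and -1.64 with 2.32 on liver 5. Defa36 was at 3.84, 5.23, 0.40, 6.38 and -2.37, with 1.48 on liver 5. Defa21 was well above background on small intestine 1, 2 and 4, at 4.33, 5.68 and 6.75, and on liver 5, at 1.19. Defa26 and the pseudogene Defa-ps1 were well above background on small intestine 1, 2 and 4 but not on liver 5. Defa25 was so on small intestine 4 only, at 0.56. The pseudogenes Defa-ps12 and Defa-ps13 never passed the flag.

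**Figure D2:**
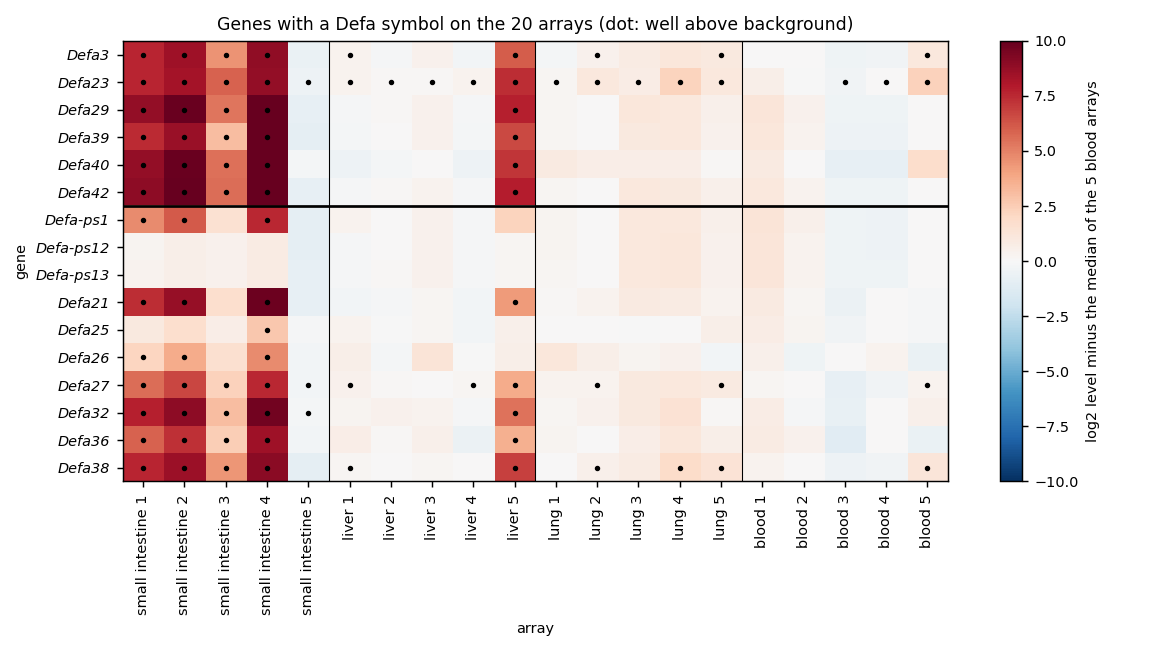
Level of the 16 genes with a Defa symbol on each of the 20 arrays, as log2 level minus the median of the 5 blood arrays, with the 6 described genes above the line and a dot where the probe was well above background. Columns small intestine 1, 2 and 4 are darkest, small intestine 3 and liver 5 follow, small intestine 5 is pale, and Defa-ps12 and Defa-ps13 are pale throughout.

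Other genes of the Paneth cell were examined from a list of 12, of which 10 had a probe and 4 passed the filter for testing, for which 4 of the 5 arrays of some site had to carry the flag. Itln1 and Reg3g passed through small intestine alone, so a high level there was a condition of being tested, and their p-values and the counts that hold them are a description, not support. Lyz1 passed through lung as well, and Habp2 carried the flag on 18 of 20 arrays. Itln1, an intestinal lectin, was higher in small intestine than in blood, with 3.37 against -2.71 (log2 difference 6.09, SE 1.69, limma adjusted p = 0.031, higher on 4 of 5 slides). It was 1 of 4 tested genes of the list to be called, where 74 of all 8057 genes tested (0.918%) were called higher and 9.94% lower. The median difference of the 4 was 4.73, against -0.36 over all genes tested. The call was lost with scaling on probes flagged on all arrays (adjusted p = 0.071) and with no filter (0.055). It was also lost, at adjusted p of 0.064, 0.073, 0.06 and 0.054, without blood 2, 3, 4 or 5, and at 0.07, 0.1 and 0.09 without small intestine 1, 2 or 4. Liver 5 and small intestine 5 were set apart on Paneth cell genes. The p-values and counts without them are therefore a description for all 4 genes, not support. With liver 5 and small intestine 5 left out, all 4 were higher in small intestine than in blood, where 380 of 8057 genes (4.72%) were called higher and 26.3% in either direction. Itln1 then differed by 8.00 (limma adjusted p = 6.2e-06), Lyz1, the Paneth cell lysozyme, by 6.61 (adjusted p = 0.0042), Reg3g, an antibacterial lectin, by 5.82 (adjusted p = 0.00014) and Habp2, a secreted protease, by 1.12 (adjusted p = 0.026). Without those 2 arrays Itln1, Lyz1 and Reg3g were also higher than in liver, against 1.71% of all genes, and Itln1 and Reg3g than in lung, against 0.707% (2.63% in either direction). Over all 20 arrays, none of the 4 was called against liver or lung in limma. At an unadjusted p under 0.05, 1777 genes differed from liver and 665 from lung, while 0 and 12 were called, the 12 being 0.149% of genes, 0.0124% higher and 0.137% lower.

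Lyz1 was not confined to small intestine. Its levels were 4.52, 5.64, -0.13, 6.62 and -3.87 on small intestine 1 to 5, against 3.53, 3.57, -2.01, 6.04 and 5.86 on lung 1 to 5. On the lung arrays the mean of the 6 alpha-defensins lay between -2.12 and -1.21. The highest lung reading of their probes was that of the first Defa23 probe on lung 4, at 1.70. In small intestine against lung, Lyz1 differed by 0.76 without the 2 arrays (SE 1.41, limma adjusted p = 0.91). Itln1 had levels of 5.59, 6.64, 1.82, 7.10 and -4.28 on small intestine 1 to 5 and 3.99 on the array labelled liver 5. It was also well above background on blood 5, at -0.58, the array where Defa3 and Defa23 were raised.

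The genes most like the mean of the 6 alpha-defensins were sought among all 8057 genes tested, by Pearson's r over 20 arrays and leaving out Defa symbols. Itln1 came first with r = 0.992, followed by Reg3g at 0.971, Lgals4 at 0.943 and Jchain at 0.941. Sdc1, Krt18, Derl3, Tmem176a, Gjb2 and 0610040J01Rik followed, with r between 0.909 and 0.862. Itln1 and Reg3g were the only 2 named genes with r of at least 0.95. Lgals4 is a galectin and Krt18 a keratin of epithelia, whereas Jchain, Sdc1 and Derl3 are abundant in plasma cells. Jchain, the joining chain of secreted antibodies, was at 5.60, 5.29, 4.45, 2.39 and -3.89 on small intestine 1 to 5 and at 4.24 on the array labelled liver 5. Unlike the alpha-defensins, Jchain was lowest among small intestine 1 to 4 on small intestine 4. These genes were picked for this likeness, so their differences between sites carry no test here.

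On the array labelled liver 5, the Paneth cell genes did not keep the proportions seen on small intestine 1, 2 and 4. Mmp7, the protease that cleaves the alpha-defensin propeptides, was well above background on small intestine 1, 2 and 4, at 1.22, 2.82 and 4.58, and was at -1.95 and not well above background on liver 5. Its 1 other array with the flag was liver 2, at -0.66. Ang4, an antimicrobial ribonuclease, was at -0.50, 0.99 and 2.83 on small intestine 1, 2 and 4 and at -3.04, not well above background, on liver 5. This was not particular to liver 5, since small intestine 3 did not carry the flag for Mmp7 or Ang4 either, at -2.73 and -2.84. Reg3a was well above background on liver 5 alone, at 3.68, and Reg3b was at 6.65 there, against 1.67 and 4.63 on small intestine 3 and 4, the other arrays with the flag. Clps, a colipase, was at 2.17, 3.03 and 4.38 on small intestine 1, 2 and 4 and at 3.89 on liver 5. Mptx1 never passed the flag.

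Markers of the exocrine pancreas stood out on the same array. The 11 genes of that list averaged 3.09 on the array labelled liver 5, against -2.54 to -2.26 on liver 1 to 4, and ranged from -2.16 to -0.88 on the small intestine arrays. Ctrb1, a chymotrypsinogen, was at 7.52 on liver 5, 3.73 on small intestine 3, -0.04 on small intestine 5 and 1.98 on lung 2, and not well above background elsewhere. Amy2a5, a pancreatic amylase named after its values were seen, was well above background on the same 4 arrays. Cela3b, an elastase, was at 5.78 on liver 5 and at 2.07 to 3.11 on the small intestine arrays. On small intestine 1, 2 and 4, the highest for alpha-defensins, genes of the pancreas list differed. Ctrb1 was not well above background there, Cela3b carried the flag on all 20 arrays, and Cpb1, a carboxypeptidase, carried it on small intestine 1 and 4, at -0.65 and 0.08. As a list, hepatocyte markers averaged no higher on the liver arrays, with list means of -1.97 to -1.67 on liver 1 to 4 and -2.21 on liver 5, and of -2.44 to -1.59 on small intestine. Of the 7 hepatocyte genes with a probe, 4 were not well above background on any array, so these means are mostly dim signal. Apoa2, the 1 tested gene of that list, was at -0.07, 0.10, 0.91 and 0.46 on liver 1 to 4, all with the flag. On liver 5 it was at -1.12, without the flag. Apoa2 also carried the flag on small intestine 3 and 5, lung 3 and blood 3, 4 and 5. The part of pancreatic or other tissue RNA in the signal of liver 5 or of the small intestine arrays was not tested, for the alpha-defensins or for Reg3a, Reg3b and Clps.

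**Figure D3:**
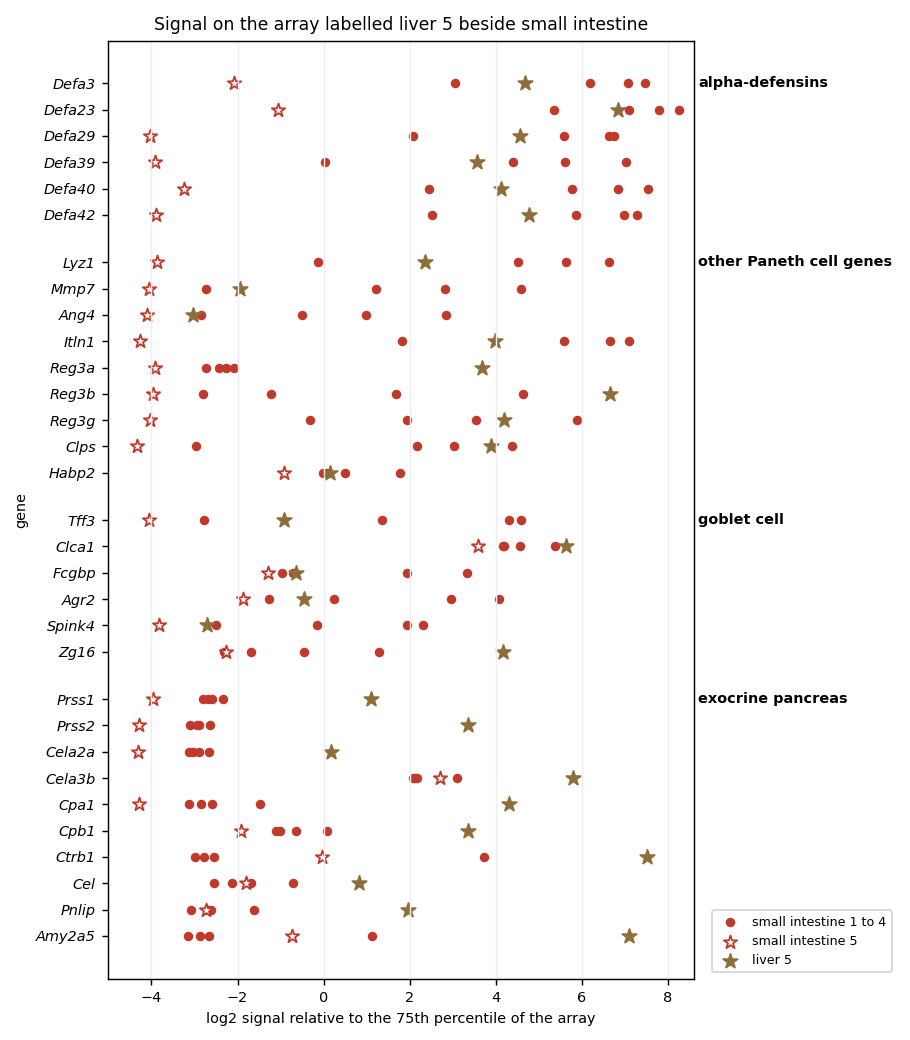
Log2 signal relative to the array's 75th percentile for the 6 alpha-defensins and for the genes of 3 lists that were well above background on at least 1 array; dots are small intestine 1 to 4, the open star small intestine 5 and the filled star liver 5. The filled star lies among the dots for the alpha-defensins, below the 3 brightest dots for Mmp7 and Ang4, and to the right of all dots for Reg3a, Reg3b and every exocrine pancreas gene shown.

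Genes of other cells moved with the alpha-defensins on part of these arrays. Goblet cell genes averaged -0.10, 2.35, -1.04 and 2.02 on small intestine 1 to 4 and 0.28 on liver 5. Pan-epithelial genes averaged -0.27, 1.74, -1.22, 2.74 and -2.45 on small intestine 1 to 5, with -0.38 on liver 5. Clca1, the brightest goblet cell gene in small intestine, was well above background on all 20 arrays. It was at 4.38 in small intestine against 3.70 in blood (limma adjusted p = 0.24), and at 5.63 on liver 5. Agr2, the next brightest of that list, was at 0.24, 4.08 and 2.95 on small intestine 1, 2 and 4 and at -0.455 on liver 5, the 4 arrays with the flag. Tff3, a goblet cell peptide, was at 1.35, 4.31 and 4.59 on small intestine 1, 2 and 4 and not well above background elsewhere. Zg16, a goblet cell gene named after its values were seen, carried the flag on small intestine 2 and liver 5 alone, at 1.29 and 4.16. Of the 7 goblet cell genes, 1 did not pass the flag on any array. Pigr, the brightest pan-epithelial gene in small intestine, was well above background on all 20 arrays, at 5.28 in small intestine and 5.42 in lung. Krt18 passed the flag on 16 arrays and Lgals4 on 10. Epcam, a dimmer gene of that list, did so on small intestine 4 only. Plasma cell genes averaged 1.92, 1.77, 0.45, -0.01 and -2.29 on small intestine 1 to 5, with 0.57 on liver 5. The 15 CD8 T cell genes averaged 3.44, 2.91, 4.70, 2.65 and 4.36 on small intestine 1 to 5 and 4.21 on liver 5, against 4.04 to 4.39 on the blood arrays. Small intestine 1, 2 and 4, highest for alpha-defensins, were thus lowest for T cell genes, and small intestine 3 was high for both T cell genes and, in part, alpha-defensins. None of the 14 tested T cell genes was called between small intestine and blood over all arrays in limma, where 10.9% of genes were. Their median difference was -0.59, against -0.36 over all genes. Without the 2 arrays Cd3g, Cd5, Cd8b1 and Themis were lower in small intestine, 4 of 14, where 21.6% of all genes were. The median difference was then -0.76, against -0.42 over all genes. Small intestine 5, set apart on Paneth cell genes, had a higher T cell list mean than small intestine 1, 2 and 4. The 4 calls without it are therefore a description, not support. What part other cells had in the alpha-defensin signal was not tested.

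**Figure D4:**
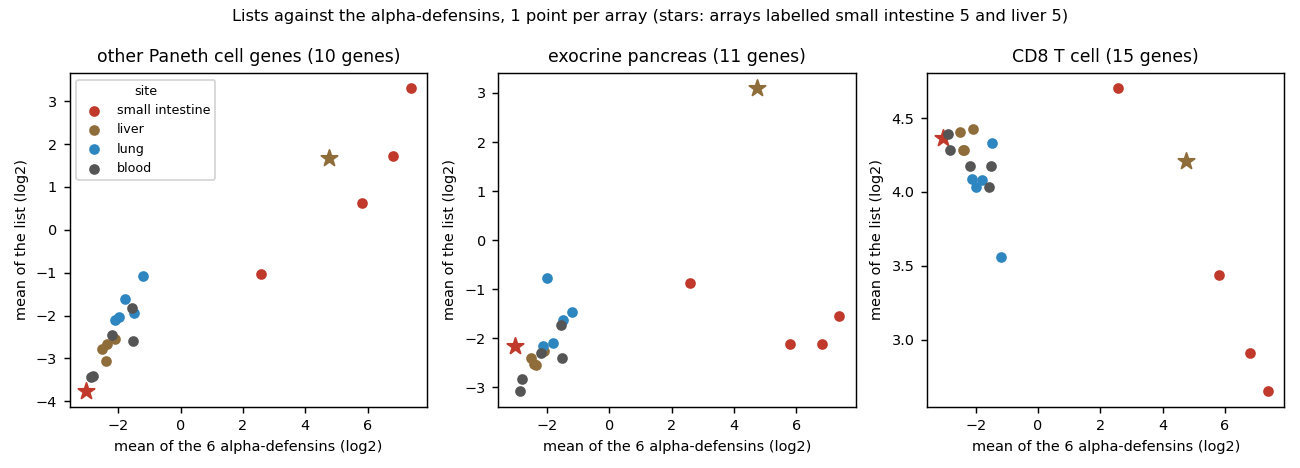
Mean log2 level of the other Paneth cell genes, the exocrine pancreas genes and the CD8 T cell genes, each against the mean of the 6 alpha-defensins, 1 point per array, with stars for the arrays labelled small intestine 5 and liver 5. Paneth cell genes climb with the alpha-defensins, pancreas genes are high only at the liver 5 star, and T cell genes are lowest on the 3 small intestine arrays with the most alpha-defensin signal.

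Regulators of Paneth cells and of secretory cells in general were mostly dim. Of 14 genes on that list 7 were not well above background on any array and 5 were tested. None of the 5 was called between small intestine and any other site over all 20 arrays. With liver 5 and small intestine 5 left out, 3 of the 5 were called between small intestine and blood, 2 higher and 1 lower, where 26.3% of all genes were called, 4.72% higher and 21.6% lower. Spdef, a factor of secretory cells, was higher in small intestine than in blood by 1.85 (limma adjusted p = 0.017; it passed the filter through small intestine alone) and Xbp1, a factor of the unfolded protein response, by 0.98 (adjusted p = 0.04). Gfi1, a repressor that acts in both secretory lineages and T cells, was lower by -1.96 (adjusted p = 0.0086). Ephb3, a receptor that positions Paneth cells in the crypt, was at 5.93 in small intestine and 5.80 in blood (log2 difference 0.13, SE 0.33, limma adjusted p = 0.76).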

How the data were processed

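Total RNA of CD45.1+ cells from 4 sites, 5 arrays each, was amplified, Cy3-labelled and put on 1-colour Agilent arrays, per the labels' protocols. Per the file headers, the spot intensity was read with Feature Extraction, version 11.0.1.1, with background subtracted. Version 10.7 and Partek stand in the submitters' processing notes. The table of values that the authors deposited holds log2 numbers. It differed from quantile-normalized log2 processed signal by 0.000108 (median absolute difference, 5.57 at most), all column medians were 8.05, and it was used as an alternative.

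Controls and 24 spots flagged non-uniform were dropped, spots of a probe were averaged as log2, and each array's 75th percentile was subtracted. Accessions matched to RefSeq GRCm38.p6 gave 27508 of 39429 probes 1 symbol, and 11921 probes stayed unnamed. The gene value is its probe with the highest mean. Genes with that flag on 4 or more of the 5 arrays of any site were tested (8057, all 6 alpha-defensins among them) with limma 3.58.1 in R 4.3.3, 16 residual degrees of freedom, two-sided, with Benjamini-Hochberg adjustment at 0.05. In all-array comparisons the 4 sites shared 1 estimate of the spread. The procedure was tested on simulated data. The median difference over all genes was -0.36, -0.34 and -0.15 for small intestine minus blood, liver and lung, and -0.32, -0.12 and 0.08 with scaling on 6835 probes well above background on all arrays, so the number of arrays and the scaling limit precision. Each slide held the arrays of 1 replicate number, so slide and replicate block are the same fit; same-numbered arrays correlated at -0.374 to 0.562 in their deviations, over 0.1 in 18 of 30 pairs.

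The genes and lists were chosen with earlier results of these data known. Named were the 6 genes, other Defa genes well above background anywhere, all Paneth cell genes, up to 3 genes of each further list by mean signal in small intestine or as called, and the 10 genes most like the 6. Epcam, Amy2a5, Fabp1 and Zg16 were named in addition. Alternatives were other normalizations, filters, probe means, the block and leaving out arrays. The motifs searched were chosen after the promoters were seen. Promoters are RefSeq's, aligned with Biopython 1.88.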

Additional observations from a re-analysis of the deposited data

Results flagged for a closer look

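Within a site, the gap between the array farthest out and its nearest neighbour was set against the range of the 5 arrays, for the 6 genes, their mean and 12 list means at 4 sites. Of 76 such groups 11 had a gap beyond Dixon's critical value for 5 samples, and all 11 were due to the array labelled liver 5. Chance gives about 1 in 20, and the 11 share 1 array, so they are not independent. For the 6 genes and their mean, 7 of the 11, this is a description and no test, since these values chose the genes and set liver 5 apart. The flagged list means are a description too, since liver 5 had already been set apart and the lists were chosen with earlier results known. The level of liver 5 was 4.67 for Defa3, 6.84 for Defa23, 4.55 for Defa29, 3.56 for Defa39, 4.11 for Defa40 and 4.78 for Defa42. Their mean was 4.75 there, with the next liver array at -2.09. The list means of liver 5 were 1.67 for other Paneth cell genes, 0.28 for goblet cell genes, 3.09 for exocrine pancreas genes and 0.57 for plasma cell genes. Small intestine 5 did not pass this rule in any of its groups.

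Among 11921 probes without a gene symbol in the table used, 7 were well above background on at least 3 of small intestine 1 to 4 and correlated with the mean of the 6 alpha-defensins at r of 0.95 or more over 20 arrays, a minimum chosen after seeing the data. Their means ran from 1.23 to 4.70 in small intestine and from -3.29 to -1.63 in blood, and 4 of the 7 were well above background on at least 1 blood array. Which genes they report was not examined.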

How the results depend on the processing

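The mean difference of the 6 alpha-defensins kept its direction under all 7 alternatives and on leaving out each of 20 arrays, for every site. For small intestine minus blood it was 6.11, with 4.98 to 7.85 over the alternatives and 5.24 to 7.85 over the left-out arrays. Minus liver it was 4.84, with 4.10 to 7.99 and 3.97 to 6.57, and minus lung 5.63, with 4.78 to 7.37 and 4.76 to 7.37. The array labelled liver 5 exceeded liver 1 to 4 by 7.10 and by 5.12 to 7.07 under 6 alternatives, and small intestine 5 differed from small intestine 1 to 4 by -8.69 and by -8.73 to -6.80. That small intestine 5 was lowest of all held for 9 of 10 probes on the scaled values and for 0 of 10 unscaled. Counts of called genes moved far more, and the cause was not tested. Small intestine minus blood gave 875 genes, 495 with quantile normalization or the deposited value table, 497 with median scaling, 19 with scaling on probes well above background on all arrays, 255 with no filter, 2118 without liver 5 and small intestine 5, and 0 to 2037 over left-out arrays (0 without small intestine 2, 164 without blood 5, 240 without blood 2, 261 without small intestine 4, 266 without blood 3, 369 without small intestine 1, 493 without blood 4, 1919 without small intestine 3 and 2037 without small intestine 5). Small intestine minus liver gave 0, 1311 without those 2 arrays, 325 without liver 5, 823 without small intestine 5 and 0 to 823 over left-out arrays. Small intestine minus lung gave 12, 27 with quantile normalization or the deposited table, 20 with scaling on probes well above background on all arrays, 7 with probe means, 0 with normexp or with only genes well above background everywhere, 212 without the 2 arrays, and 3 to 118 over left-out arrays, the lowest without lung 5 and the highest without small intestine 5 (63 without liver 5, 44 without lung 3, 20 without small intestine 4, 6 without small intestine 3, and 7 without lung 4, blood 2, blood 5 or small intestine 1). Other Paneth cell genes called against blood were 1, 2 with quantile normalization or the deposited table, 0 with scaling on probes well above background on all arrays or no filter, 4 without the 2 arrays and 0 to 4 over left-out arrays. With the slide as a replicate block the counts were 1163, 0 and 9 against blood, liver and lung, and 1 Paneth cell gene, and none of these counts moved by over 1.5 times. Normexp was run on median signals, an alternative chosen after seeing the data; normexp on mean signals was not run, as the files used here hold no such column.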

Other observations

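Beta-defensins, which epithelia outside the Paneth cell lineage make, did not share the pattern of the alpha-defensins. Of 43 genes with a Defb symbol and a probe, 7 were well above background on at least 1 array and 2, Defb20 and Defb47, on at least 4 small intestine arrays. Defb47 averaged 0.45 ± 0.77 in small intestine, 0.08 ± 0.81 in liver, 1.00 ± 0.84 in lung and -0.24 ± 0.50 in blood (SD, n = 5 each). Defb20 averaged -0.44 ± 0.49 in small intestine and -0.73 ± 0.46 in blood (SD, n = 5 each). The largest gap between site means of Defb47, lung against blood, exceeded the SD within any site, and lung against blood was not tested. Both genes were among those tested for small intestine against the other sites, and these results are not given here.

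Ascl2 and Smoc2, stem cell genes of the crypt base, were well above background on small intestine 2 only, at 0.37 and 1.04. Fabp2, an enterocyte lipid carrier, was at -0.64, 3.40 and 3.78 on small intestine 1, 2 and 4 and at 0.17 on lung 1, the 4 arrays with the flag. Fabp1, a further lipid carrier named after its values were seen, carried the flag on lung 1, 2, 4 and 5 alone, at 0.33, 1.69, 4.25 and 2.75, and Apoa1, an apolipoprotein, on 6 arrays over small intestine, liver and blood. Among 13 enterocyte genes 9 were not well above background on any array.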
